A study of Bos indicus and Bos indicus x Bos taurus and Bos taurus with 6 samples.

Results

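Natural killer (NK) cell receptor genes, their DAP10 and DAP12 adaptor genes and a gene for a UL16-binding protein were compared in cow blood across 3 breeds. The set holds 10 of the 21698 genes in the count table. They are KLRK1, KLRD1, KLRB1 and KLRF1 (C-type lectin-like receptors), NCR1, NCR3 and CD244 (immunoglobulin-like receptors), HCST and TYROBP (adaptors) and LOC100336795 (a ligand). The receptors and adaptors were taken by function, with earlier results of these libraries known. LOC100336795 was selected on a measured value, its count of 0 in Kedah-Kelantan, so its levels there are a description and were not tested. All 10 genes passed the low-count filter.

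Whole-blood RNA came from the jugular vein of healthy adult cows, neither pregnant nor in milk, kept on 1 farm in Malaysia. Kedah-Kelantan is a heat-tolerant indigenous breed, Brangus an intermediate composite breed and Holstein Friesian a heat-vulnerable temperate breed. Each has 2 libraries, so n = 2 per breed except where a library was left out. The mean age was 4.5 ± 1.2 years and the mean weight 450 ± 15 kg, as the labels give them for every sample. All libraries were taken at a temperature-humidity index of 44.68, so breeds were compared under the same heat load and no cooler condition was sampled. A number of 4 animals per breed stands in the design text, without saying how the 2 libraries were drawn from them. P-values measure the spread between these libraries.

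NK cells kill infected or altered cells without a prior encounter, and the balance of activating and inhibitory receptors decides whether they fire. NKG2D, the KLRK1 product, recognises MIC and UL16-binding proteins, which cells display under stress or infection, and it signals through the adaptor DAP10 (HCST). CD94, the KLRD1 product, pairs with NKG2 chains to read class I molecules. DAP12 (TYROBP) carries an activation motif for several receptors, and it serves monocytes and neutrophils as well as NK cells. Several of these receptors are also found on cytotoxic and gamma delta T cells.

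The total count was 25275377 to 28668857 per library. The 2 Kedah-Kelantan libraries differed over 2-fold in 12 of 8867 well-expressed genes, the Brangus libraries in 182 and the Holstein Friesian libraries in 2003. Markers of other blood cells also differed between the Holstein Friesian libraries. The summed level of 12 monocyte markers was 541 CPM (a count scaled to the TMM-adjusted library size) in replicate 1 and 9142 in replicate 2, against 1747 to 2237 in the other 4 libraries. For 11 B cell markers it was 3705 and 427 CPM, against 2348 to 3745 elsewhere. For 13 T cell markers it was 2884 and 3734 CPM, against 2835 to 3122 elsewhere. Markers of gamma delta T cells, 8 in number, summed to 317 and 106 CPM, against 108 to 153 elsewhere. Marker sums also separated Kedah-Kelantan from Brangus, except those of T cells and monocytes. Neutrophil markers summed to 2724 and 2918 CPM in Kedah-Kelantan against 3274 and 4993 in Brangus (1033 and 8782 in Holstein Friesian). Gamma delta T cell markers summed to 108 and 119 CPM against 132 and 153. Eosinophil, basophil and mast cell markers summed to 454 and 472 CPM in Kedah-Kelantan against 56.5 and 48.0 in Brangus, and to 56.1 and 1328 in Holstein Friesian. Platelet markers summed to 606 and 624 CPM against 1501 and 1432 (459 and 1827 in Holstein Friesian), erythroid markers to 150 and 186 against 451 and 644 (102 and 233), and B cell markers to 2348 and 2479 against 3745 and 3135. The part of these differences in the values of the set was not tested. The listed T cell, gamma delta T cell, B cell and monocyte markers were all detected in every library, but some other markers were not. CA1 had 0 counts in every library, LTF in both Brangus libraries and CAMP in all libraries but Kedah-Kelantan replicate 1. Of 13 eosinophil, basophil and mast cell markers, 9 were among the counted genes. HBB ranged from 94.99 to 635 CPM, HBA had 1 to 44 counts per library and HBA1 had 0. In bulk blood, fewer NK cells and less RNA per NK cell cannot be told apart.

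Of the 10 genes, 6 receptor genes were higher in both Kedah-Kelantan libraries than in any of the other 4 libraries. They were KLRK1, KLRD1, KLRB1, KLRF1, NCR1 and NCR3. Across all 13455 tested genes, 10.8% showed that order. A gap of over 2 times between the lower Kedah-Kelantan library and the highest other library was found for KLRK1 and NCR1, against 0.84% of tested genes. CD244, HCST and TYROBP overlapped with Holstein Friesian, and LOC100336795 was lowest in Kedah-Kelantan by choice. At fixed scaling, leaving out a library can only add genes to this order. Scaling was recomputed without each library, and the 6 genes kept the order each time. HCST joined the 6 without Holstein Friesian replicate 1, where 15.3% of genes had that order, and CD244 without replicate 2, where 24.0% did.

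**Figure D1:**
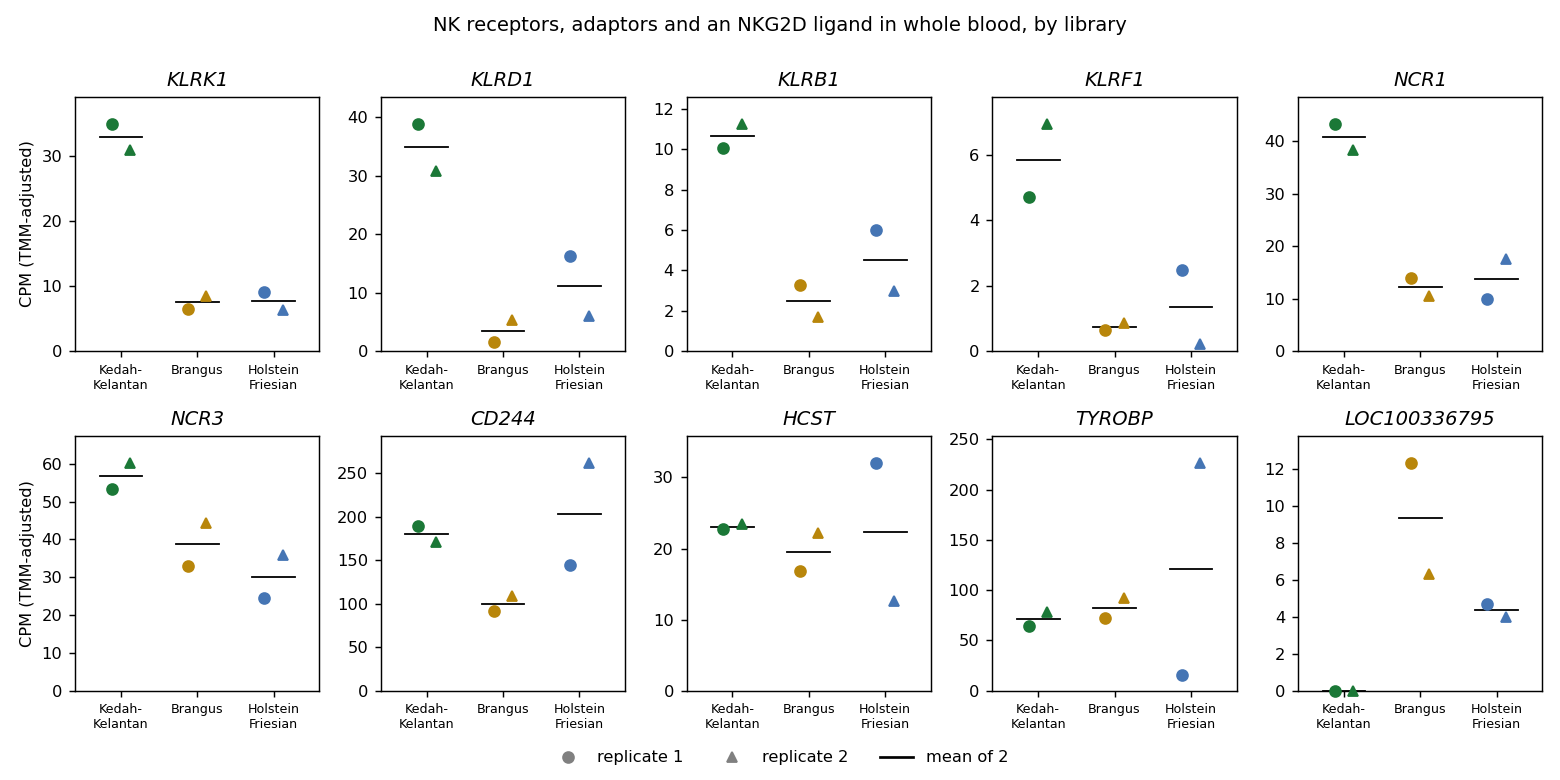
Level of each of the 10 genes in CPM (linear axis from 0) in the 2 libraries of each breed (circle, replicate 1; triangle, replicate 2), with black bars for the mean of 2. KLRK1, KLRD1, KLRB1, KLRF1, NCR1 and NCR3 were higher in both Kedah-Kelantan libraries than in the other 4, while TYROBP ran from 15.3 to 226 CPM between the Holstein Friesian libraries.

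No receptor or adaptor gene passed the test across all genes. In edgeR's quasi-likelihood test, 0 of 9 were called at a Benjamini-Hochberg adjusted p under 0.05 in Kedah-Kelantan against Holstein Friesian, where 0.00743% of all genes were called. The other comparisons also gave 0 called members, with 0.00743% of genes called in Brangus against Holstein Friesian and 0% in Kedah-Kelantan against Brangus. The unadjusted p was under 0.05 for 3 of 9 in Kedah-Kelantan against Holstein Friesian (4.04% of all genes), 1 of 10 in Brangus against Holstein Friesian (7.62%) and 6 of 9 in Kedah-Kelantan against Brangus (11.6%). DESeq2 called 2, 0 and 4 members in the same order, against 0.985%, 2.28% and 4.93% of all genes. These 3 comparisons share libraries, so they are not independent of each other.

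Log2 fold changes were above 0 for 7 of 9 receptor and adaptor genes in Kedah-Kelantan against Holstein Friesian (46.5% of all genes), for 1 of 9 in Brangus against Holstein Friesian (47.3%) and for 8 of 9 in Kedah-Kelantan against Brangus (51.9%). With LOC100336795 included, 7, 2 and 8 of 10 were above 0 in that order, 8, 2 and 9 when libraries were scaled by total counts, and 9, 3 and 9 with limma on FPKM. The genes that crossed 0 were CD244 and TYROBP. The median log2 fold change of the 10 genes was 1.08 for Kedah-Kelantan against Holstein Friesian, beside -0.03 for all tested genes. It was -0.38 for Brangus against Holstein Friesian (-0.03 for all genes) and 1.29 for Kedah-Kelantan against Brangus (0.02 for all genes). LOC100336795 is the lowest of the 10 in both comparisons with Kedah-Kelantan, whether its fitted value or its lower bound is used, so these medians are the same either way. Without it the medians of the 9 receptor and adaptor genes were 1.24, -0.56 and 1.73 in that order.

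The calls depended on the Holstein Friesian pair. In a fit without 1 of its libraries, the lone library left is assumed to vary like those of the other breeds. The 2 Holstein Friesian libraries, though, differed over 2-fold in 2003 of 8867 well-expressed genes, against 12 for Kedah-Kelantan and 182 for Brangus. Calls from such fits rest on that assumption. When only the 4 Kedah-Kelantan and Brangus libraries were fitted, 6 of 9 members were called higher in Kedah-Kelantan, against 9.09% of all genes, and 0 lower, against 10.2%. Those were KLRK1, KLRD1, KLRB1, KLRF1, NCR1 and CD244. The same count of 6 was reached without Holstein Friesian replicate 1 (8.35% of genes) and without replicate 2 (7.92%, with 9.62% of genes called lower). Against Holstein Friesian, 6 members were called higher and 2 lower without replicate 1, where 6.8% and 10.7% of genes were called in those directions. Without replicate 2, 4 were called higher (6.56% of genes) and 0 lower (5.35%). TYROBP was among these 4, and it had been called lower without replicate 1. In Brangus against Holstein Friesian, CD244 and TYROBP were called lower without replicate 1 (16.8% of genes, with 14.5% called higher). Without replicate 2, KLRD1 was called lower (1.7% of genes) and TYROBP higher (4.36%). In Kedah-Kelantan against Holstein Friesian, KLRK1 and NCR1 were called higher both without replicate 1 and without replicate 2, as were 0.482% of genes.

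**Figure D2:**
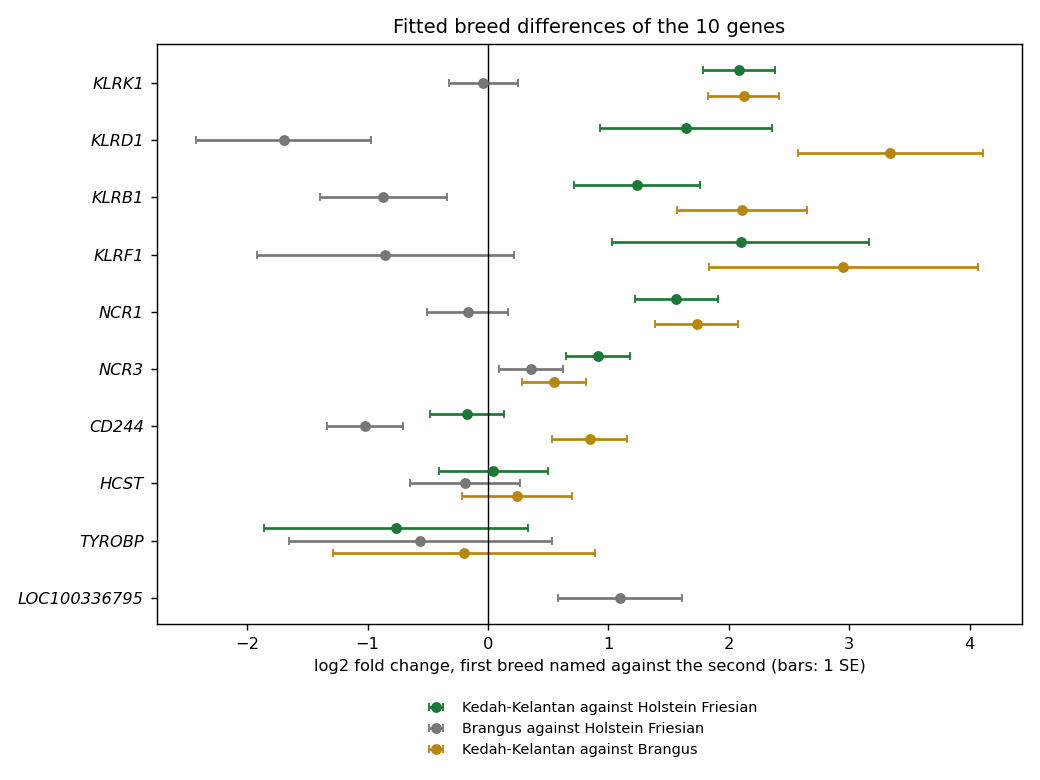
Fitted log2 fold changes (bars, 1 SE) of the 10 genes in the 3 breed comparisons, from edgeR over all 6 libraries. KLRK1 stood at 2.08 and 2.12 in the Kedah-Kelantan comparisons and at -0.04 in Brangus against Holstein Friesian, and the widest bars belonged to TYROBP and KLRF1. LOC100336795 is shown only for Brangus against Holstein Friesian.

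Of the 4 lectin-like receptor genes in the set, KLRK1 (chromosome 5, 99603137 to 99613786, plus strand, positions here and below as in the deposited table) had the widest gap, with the lower Kedah-Kelantan library at 3.38 times the highest other library. It was 34.9 and 30.8 CPM in the Kedah-Kelantan pair, 6.55 and 8.51 in the Brangus pair and 9.13 and 6.35 in the Holstein Friesian pair, replicate 1 first here and below. The Kedah-Kelantan libraries were clear of the rest, and the Brangus and Holstein Friesian libraries overlapped. As group means this was 32.8 ± 2.86 CPM (SD, n = 2) against 7.53 ± 1.383 and 7.74 ± 1.96. Its log2 fold change was 2.12 (SE 0.30, edgeR adjusted p = 0.337) for Kedah-Kelantan against Brangus and -0.04 (SE 0.29, edgeR adjusted p = 0.971) for Brangus against Holstein Friesian. Against Holstein Friesian it was 2.08, and 1.80 to 2.37 over the fits that each left out 1 library.

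KLRD1 (chromosome 5, 99623592 to 99660578, minus strand), the CD94 partner chain, lies 9805 bases beyond KLRK1 in the deposited positions. It was 38.9 and 30.9 CPM in the Kedah-Kelantan pair, 1.58 and 5.28 in the Brangus pair and 16.3 and 6.01 in the Holstein Friesian pair. All 3 breeds were separated, with Brangus lowest. This was a log2 difference of 3.34 (SE 0.77, edgeR adjusted p = 0.353) for Kedah-Kelantan against Brangus, 1.65 (SE 0.71, edgeR adjusted p = 0.995) against Holstein Friesian, and -1.70 (SE 0.73, edgeR adjusted p = 0.659) for Brangus against Holstein Friesian. The replicates of Brangus differed 3.34-fold and those of Holstein Friesian 2.71-fold. Another row described as CD94, LOC618565, had 1059 and 1045 counts in the Kedah-Kelantan pair, 439 and 704 in the Brangus pair and 1143 and 70 in the Holstein Friesian pair, and how reads were split between the 2 rows is uncertain.

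KLRB1 (chromosome 5, 100505409 to 100521444, plus strand), the CD161 receptor gene, was also highest in Kedah-Kelantan. It was 10.04 and 11.2 CPM in the Kedah-Kelantan pair, 3.25 and 1.68 in the Brangus pair and 6.01 and 3.003 in the Holstein Friesian pair. Kedah-Kelantan was clear of the others, which overlapped. On the log2 scale the difference was 2.11 (SE 0.54, edgeR adjusted p = 0.353) against Brangus and 1.24 (SE 0.52, edgeR adjusted p = 0.995) against Holstein Friesian.

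KLRF1 (chromosome 5, 100227909 to 100238443, minus strand), the gene of the activating receptor NKp80, rested on few reads. It had 147 and 214 counts in the Kedah-Kelantan pair, 15 and 20 in the Brangus pair and 74 and 6 in the Holstein Friesian pair. The exact 95% Poisson intervals were 8.4 to 24.7 and 12.2 to 30.9 counts for the Brangus libraries and 2.2 to 13.1 for Holstein Friesian replicate 2. These intervals cover counting error only. The Holstein Friesian libraries differed 10.9-fold, the widest replicate gap among the receptor genes of the set, and spanned both Brangus libraries. The fitted log2 difference was 2.95 (SE 1.117, edgeR adjusted p = 0.421) for Kedah-Kelantan against Brangus and 2.10 (SE 1.07, edgeR adjusted p = 0.995) against Holstein Friesian. Leaving out Holstein Friesian replicate 1 gave 4.65 for the latter, and leaving out replicate 2 gave 1.19. Another row described as killer cell lectin-like receptor subfamily F member 1, LOC100294723, had more reads and was not highest in Kedah-Kelantan. Its counts were 1114 and 1095 in the Kedah-Kelantan pair, 887 and 892 in the Brangus pair and 470 and 2512 in the Holstein Friesian pair. How reads were split between these rows is uncertain.

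Both natural cytotoxicity receptor genes were highest in Kedah-Kelantan. NCR1 (chromosome 18, 62505908 to 62527154, minus strand) encodes NKp46, the receptor most used to define NK cells in cattle. It was 43.3 and 38.3 CPM in the Kedah-Kelantan pair, 14.0 and 10.6 in the Brangus pair and 9.97 and 17.6 in the Holstein Friesian pair. Kedah-Kelantan was clear of the others, and Brangus lay within the Holstein Friesian range. Its log2 fold change was 1.73 (SE 0.34, edgeR adjusted p = 0.353) against Brangus and 1.57 (SE 0.34, edgeR adjusted p = 0.995) against Holstein Friesian. Unlike KLRD1, KLRB1 and KLRF1, it was higher in the second Holstein Friesian library than in the first.

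NCR3 (chromosome 23, 27673263 to 27706075, plus strand), which encodes NKp30, differed least among the 6. It was 53.3 and 60.2 CPM in the Kedah-Kelantan pair, 33.1 and 44.3 in the Brangus pair and 24.4 and 35.9 in the Holstein Friesian pair. The lower Kedah-Kelantan library was 1.20 times the highest other library. This was a log2 difference of 0.91 (SE 0.27, edgeR adjusted p = 0.995) against Holstein Friesian and 0.55 (SE 0.27, edgeR adjusted p = 0.488) against Brangus.

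CD244 (chromosome 3, 8693900 to 8777372, plus strand), the 2B4 receptor for CD48, set Brangus apart as the lowest breed. It was 189 and 171 CPM in the Kedah-Kelantan pair, 91.4 and 109 in the Brangus pair and 144 and 261 in the Holstein Friesian pair. Both Brangus libraries were below the other 4, and Kedah-Kelantan lay inside the Holstein Friesian range. On the log2 scale the difference was -1.02 (SE 0.31, edgeR adjusted p = 0.645) for Brangus against Holstein Friesian and 0.85 (SE 0.31, edgeR adjusted p = 0.408) for Kedah-Kelantan against Brangus. Its value for Kedah-Kelantan against Holstein Friesian was -0.17, and 0.27 without Holstein Friesian replicate 2. CD48, the ligand of 2B4, was highest in Brangus, at 421 and 469 CPM in the Kedah-Kelantan pair, 744 and 782 in the Brangus pair and 508 and 494 in the Holstein Friesian pair. SH2D1A, whose product SAP couples 2B4 to its kinases, was 109 and 124 CPM in the Kedah-Kelantan pair, 65.9 and 59.8 in the Brangus pair and 56.2 and 72.1 in the Holstein Friesian pair.

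Over the 9 receptor and adaptor genes, libraries did not overlap between Kedah-Kelantan and Brangus for 8, all higher in Kedah-Kelantan, in an order that 33.5% of tested genes showed. For Kedah-Kelantan against Holstein Friesian 6 of 9 were separated in that direction (18.1% of genes). For Brangus against Holstein Friesian 2 of 9, KLRD1 and CD244, were separated and lower in Brangus (15.9% of genes).

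The adaptors did not share the receptor pattern. HCST (chromosome 18, 46588503 to 46591210, plus strand) was 22.7 and 23.4 CPM in the Kedah-Kelantan pair, 16.9 and 22.2 in the Brangus pair and 32.0 and 12.6 in the Holstein Friesian pair. The Holstein Friesian pair spanned all other libraries. The fitted log2 difference was 0.05 (SE 0.46, edgeR adjusted p = 0.999) between Kedah-Kelantan and Holstein Friesian and 0.24 (SE 0.46, edgeR adjusted p = 0.868) against Brangus. Without Holstein Friesian replicate 1 the former was 0.87, and without replicate 2 it was -0.52.

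TYROBP (chromosome 18, 46591329 to 46594310, minus strand) lies 118 bases from HCST, with the 3′ ends of the genes facing each other. Whether the authors' counting used strand is not given in the sources used here. It was 64.7 and 77.9 CPM in the Kedah-Kelantan pair, 71.9 and 91.7 in the Brangus pair and 15.3 and 226 in the Holstein Friesian pair. The Holstein Friesian libraries differed 14.8-fold and enclosed the other 4, which lay close together. Its log2 fold change was -0.76 (SE 1.10, edgeR adjusted p = 0.995) between Kedah-Kelantan and Holstein Friesian, -1.66 without replicate 1 of the latter and 2.18 without replicate 2. The summed monocyte markers moved the same way, at 541 and 9142 CPM in the Holstein Friesian libraries and 1747 to 2237 in the rest, and 12 of 12 were detected in every library. Neutrophil markers, 2 of which are also on the monocyte list, summed to 1033 and 8782 CPM there and 2724 to 4993 in the rest, with CAMP at 0 counts in 5 of 6 libraries. Their part in the TYROBP values was not tested.

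**Figure D3:**
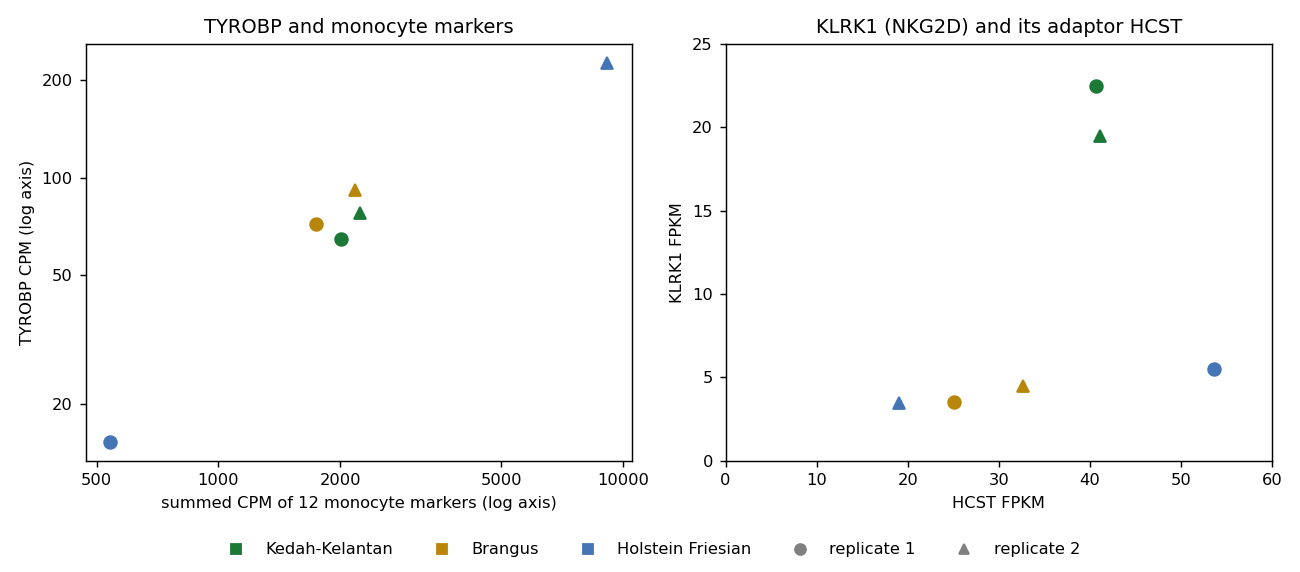
Left, TYROBP level against the summed level of 12 monocyte markers in each library, both in CPM on log axes. Right, KLRK1 against HCST in FPKM on linear axes, where the Kedah-Kelantan libraries (22.5 and 19.5 FPKM of KLRK1) sit above the other 4, whose HCST ran from 19.02 to 53.6 FPKM around the 40.7 and 41.1 of Kedah-Kelantan. Colour marks the breed and shape the replicate.

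Members were ranked against each other only per length, as FPKM (a level scaled to gene length and library size). In Kedah-Kelantan, TYROBP led at 119 ± 13.9 FPKM (SD, n = 2), followed by HCST at 40.9 ± 0.318 and NCR3 at 39.7 ± 2.87, which did not differ beyond their spread. KLRK1 came next at 20.96 ± 2.12 FPKM. CD244 (6.96 ± 0.608), KLRF1 (5.64 ± 1.44) and KLRD1 (5.49 ± 0.962) overlapped, as did KLRB1 (2.74 ± 0.184) and NCR1 (2.73 ± 0.276) below them. In Brangus the order began in the same way, with TYROBP at 113 ± 18.5, HCST at 28.9 ± 5.37, NCR3 at 22.6 ± 4.45 and KLRK1 at 4.0 ± 0.707 FPKM. In Holstein Friesian, HCST at 53.6 FPKM exceeded TYROBP at 24.1 in replicate 1, while TYROBP at 320.04 exceeded HCST at 19.02 in replicate 2.

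The level of KLRK1 relative to the gene of its adaptor was highest in Kedah-Kelantan. KLRK1 reached 0.552 and 0.473 of the HCST level per length in the Kedah-Kelantan pair, 0.139 and 0.138 in the Brangus pair and 0.102 and 0.181 in the Holstein Friesian pair. The Kedah-Kelantan ratios were above the other 4. The ratio of TYROBP to HCST was 2.67 and 3.12 in the Kedah-Kelantan pair, 4.0 and 3.87 in the Brangus pair and 0.449 and 16.8 in the Holstein Friesian pair, so the Holstein Friesian libraries enclosed the rest. KLRD1 relative to KLRK1 was 0.275 and 0.247 in the Kedah-Kelantan pair, 0.06 and 0.153 in the Brangus pair and 0.439 and 0.233 in the Holstein Friesian pair.

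LOC100336795 (chromosome 9, 87208316 to 87223687, plus strand) is described in the deposited table as UL16-binding protein 3. It had 0 and 0 counts in the Kedah-Kelantan pair, 287 and 147 in the Brangus pair and 140 and 105 in the Holstein Friesian pair. A floor of 3 counts for a library at 0 corresponds to 0.0965 and 0.0975 CPM in the Kedah-Kelantan libraries. The mean level was at least 44.6-fold higher in Holstein Friesian (4.34 ± 0.499 CPM) and at least 95.4-fold higher in Brangus (9.30 ± 4.22 CPM), taking the higher of these per-library floors. Of 23 tested genes with 0 counts in both Kedah-Kelantan libraries, it was the one with at least 100 counts in each other library, and no gene with 1 to 3 Kedah-Kelantan counts in all met that limit. The limit of 100 lies just under the lowest of its own counts there, 105, so being the one to meet it is no separate result. These values chose the gene and carry no test. Brangus against Holstein Friesian was not used to choose it. There the log2 fold change was 1.10 (SE 0.51, edgeR adjusted p = 0.659), with both Brangus libraries higher, as for 18.4% of tested genes.

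The other rows of the ligand family showed that Kedah-Kelantan blood was not without such transcripts. The deposited table has 20 rows described as UL16-binding or retinoic acid early transcript 1 proteins, 10 on chromosome 9 and 10 on unplaced sequences. Their summed level was 28.2 and 22.0 CPM in the Kedah-Kelantan pair, 23.2 and 18.2 in the Brangus pair and 45.0 and 47.6 in the Holstein Friesian pair. LOC100336795 made up 53.0% and 34.7% of the family's counts in the Brangus libraries and 10.4% and 8.39% in Holstein Friesian. These are shares of counts, not scaled to gene length. Per length, ULBP13 was at 3.42 FPKM against 2.1 for LOC100336795 in Brangus replicate 1, and at 1.04 against 1.07 in replicate 2. Without it the sums in Brangus were 10.9 and 11.9 CPM, the lowest of the 3 breeds. Near-identical copies can exchange reads in such a family, so the split between rows is uncertain.

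**Figure D4:**
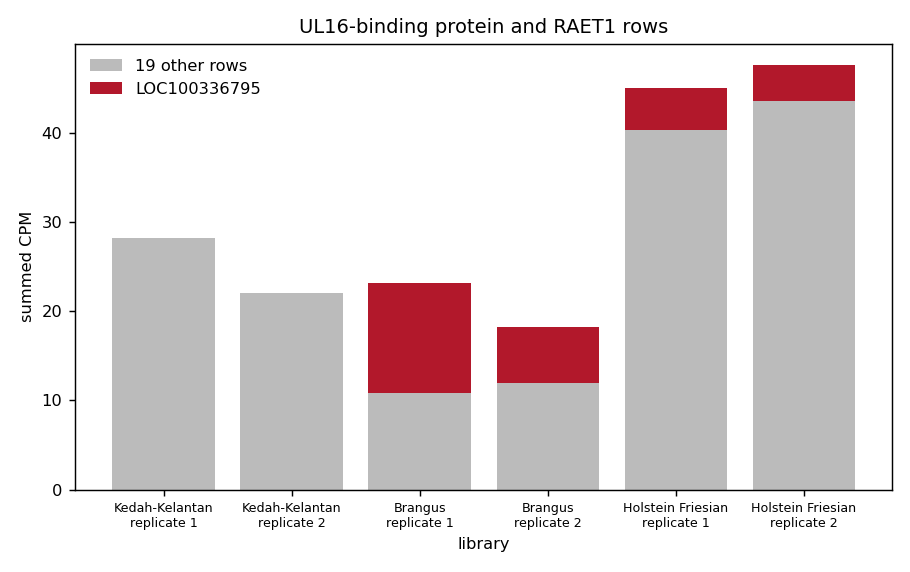
Summed CPM (linear axis from 0) of the 20 UL16-binding protein and RAET1 rows in each library, with LOC100336795 in red and the 19 other rows in grey. The red part is absent in Kedah-Kelantan, and the Holstein Friesian bars are the tallest at 45.0 and 47.6 CPM.

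Among the 14 other tested family rows, 0 had Kedah-Kelantan below the other 4 libraries (7.45% of all genes) and 2 had it above (10.8%), while 4 had Holstein Friesian above the rest (4.04% of all genes). ULBP13, a UL16-binding protein, was 6.21 and 5.36 CPM in the Kedah-Kelantan pair, 4.88 and 1.504 in the Brangus pair and 15.5 and 17.4 in the Holstein Friesian pair. ULBP3 had 9 and 6 counts in the Kedah-Kelantan pair, 1 and 15 in the Brangus pair and 167 and 103 in the Holstein Friesian pair, with a difference of -4.27 on the log2 scale (SE 1.21, edgeR adjusted p = 0.995) between Kedah-Kelantan and Holstein Friesian. ULBP17 went the other way, at 62 and 64 counts in the Kedah-Kelantan pair, 18 and 21 in the Brangus pair and 10 and 40 in the Holstein Friesian pair. LOC101903261, another row described as UL16-binding protein 3-like, also had 0 counts in both Kedah-Kelantan libraries, but only 0 and 11 in the Brangus libraries and 3 and 2 in Holstein Friesian. LOC100850276, which has the same UL16-binding protein 3 description as LOC100336795, was not low in Kedah-Kelantan. It had 67 and 67 counts in the Kedah-Kelantan pair, 3 and 9 in the Brangus pair and 14 and 61 in the Holstein Friesian pair. ULBP13, ULBP17, LOC101903261 and LOC100850276 were singled out after their values were seen.

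The lectin-like receptor genes lie together on chromosome 5, and the KLRK1 neighbours NKG2A, NKG2C and KLRD1 were high in Kedah-Kelantan too. The deposited table has 25 such rows there, of which 24 were tested and 20 are not members of the set. Of these 20, 5 were higher in both Kedah-Kelantan libraries than in the other 4, against 10.8% of all genes. NKG2A, which encodes an inhibitory partner of CD94, had 397 and 411 counts in the Kedah-Kelantan pair, 43 and 44 in the Brangus pair and 74 and 24 in the Holstein Friesian pair. NKG2C, described as the NKG2C protein, had 280 and 283 counts in the Kedah-Kelantan pair, 15 and 0 in the Brangus pair and 25 and 6 in the Holstein Friesian pair. In the deposited positions NKG2C lies 9209 bases beyond NKG2A and 45997 bases before KLRK1. NKG2A, NKG2C, KLRK1 and KLRD1 are thus consecutive among the lectin-like rows. The rows on either side of them, LOC101905403 and LOC618565, overlapped with Holstein Friesian. LOC100296778, before LOC101905403, had 426 and 364 counts in the Kedah-Kelantan pair, 6 and 29 in the Brangus pair and 143 and 12 in the Holstein Friesian pair. The log2 fold change for Kedah-Kelantan against Brangus was 2.80 (SE 0.56, edgeR adjusted p = 0.353) for NKG2A and 4.80 (SE 1.52, edgeR adjusted p = 0.383) for NKG2C.

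Other genes of the cluster did not follow. KLRC1 had 46 and 42 counts in the Kedah-Kelantan pair, 0 and 4 in the Brangus pair and 50 and 3 in the Holstein Friesian pair. Kedah-Kelantan thus lay inside the Holstein Friesian range for KLRC1. KLRA1 had 521 and 631 counts in the Kedah-Kelantan pair, 346 and 548 in the Brangus pair and 2214 and 107 in the Holstein Friesian pair, so the Holstein Friesian pair enclosed the rest. LOC100847738, another row described as NKG2-A/NKG2-B-like, was highest in Brangus, with 132 and 69 counts against 5 and 5 in Kedah-Kelantan and 12 and 18 in Holstein Friesian. Several rows of the cluster carry the same NKG2-A/NKG2-B description, so their read assignment is uncertain. These neighbours, apart from NKG2A, were singled out after their values were seen.

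**Figure D5:**
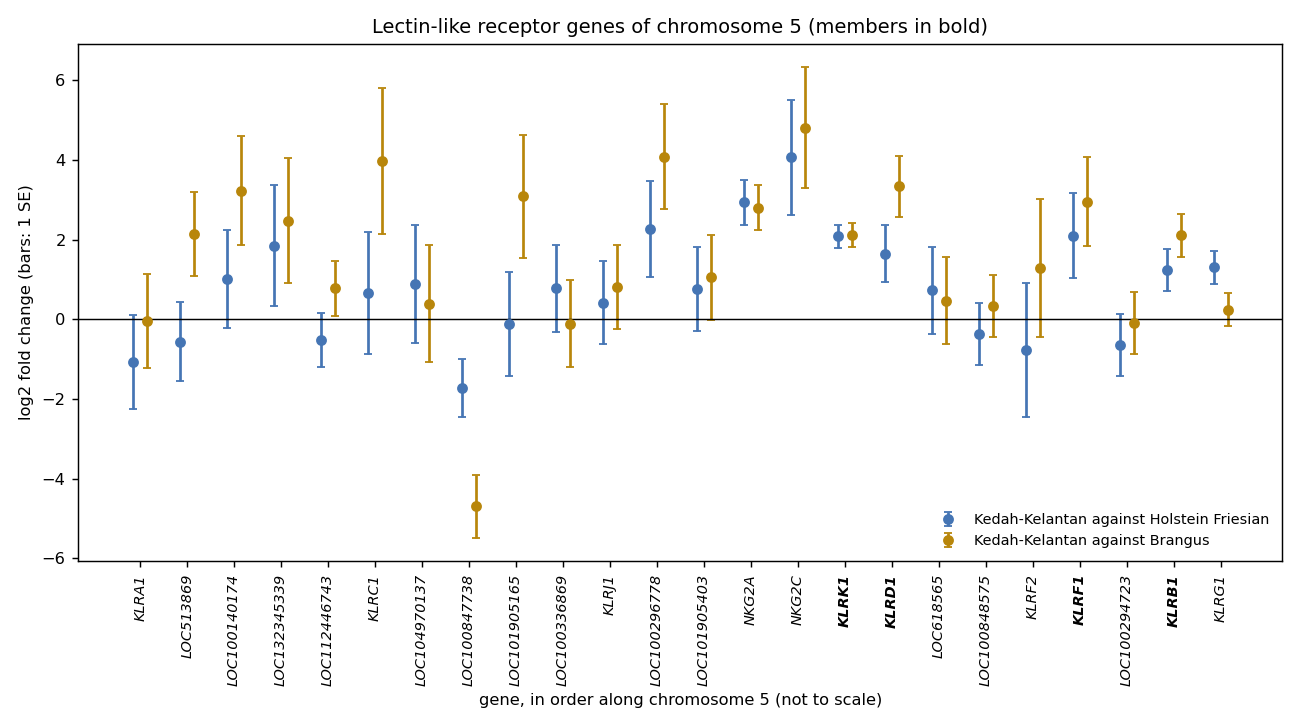
Log2 fold change (bars, 1 SE) of the 24 tested lectin-like receptor genes of chromosome 5 in their order along the chromosome, not to scale, for Kedah-Kelantan against Holstein Friesian (blue) and against Brangus (gold). NKG2A, NKG2C, KLRK1 and KLRD1 stand next to each other above 0 in both comparisons. They are part of a longer run above 0 that includes LOC100296778, LOC101905403 and LOC618565. LOC100847738 lies lowest against Brangus at -4.70.

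Related gene lists, chosen with results of these libraries known, had no called gene in any comparison by edgeR's test. Genes named from these lists had the smallest edgeR p for a difference between any breeds (any-breed p), up to 3 per list. A breed difference in them was therefore favoured by that choice. Of 22 other tested NK receptor genes, 17 were higher and 5 lower in Kedah-Kelantan relative to Brangus (median log2 fold change 0.27) and 14 were higher than in Holstein Friesian (median 0.12), beside 51.9% and 46.5% of all genes above 0. The unadjusted p was under 0.05 for 2 in each, beside 11.6% and 4.04% of all genes. Of 26 tested ligand genes, LOC100336795 among them, 8 were higher and 18 lower in Brangus relative to Holstein Friesian (median -0.72, 7 with an unadjusted p under 0.05), beside 47.3% of all genes above 0 and 7.62% with such a p. KLRG1, an inhibitory lectin-like receptor, separated Holstein Friesian from the other breeds instead, at 3.29 and 6.46 CPM against 10.7 and 13.5 in Kedah-Kelantan and 11.5 and 8.98 in Brangus. KIR3DL2, an inhibitory killer immunoglobulin-like receptor, had 40 and 60 counts in the Kedah-Kelantan pair, 7 and 6 in the Brangus pair and 94 and 44 in the Holstein Friesian pair. KIR3DS1 was highest in Brangus, at 17.3 and 8.68 CPM against 5.95 and 6.17 in Kedah-Kelantan and 5.87 and 5.78 in Holstein Friesian.

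Among 28 tested signalling genes downstream of the receptors, 4 were higher and 24 lower in Kedah-Kelantan relative to Holstein Friesian, with a median of -0.09. Against Brangus 21 were higher and 7 lower, with a median of 0.28, and for Brangus against Holstein Friesian 1 was higher and 27 lower, with a median of -0.33. The unadjusted p was under 0.05 for 2, 1 and 1 of them in that order, beside 4.04%, 11.6% and 7.62% of all genes, and the shares of all genes above 0 were 46.5%, 51.9% and 47.3%. The first split depended on the scaling: by total counts 18 were higher and 10 lower against Holstein Friesian, and 24 higher and 4 lower against Brangus. Upper-quartile scaling gave 9 higher and 19 lower against Holstein Friesian. ZAP70, a kinase shared by T and NK cells, was 256 and 247 CPM in the Kedah-Kelantan pair, 146 and 192 in the Brangus pair and 390 and 224 in the Holstein Friesian pair. PTPN6, the phosphatase that inhibitory receptors recruit, was 423 and 440 CPM in the Kedah-Kelantan pair, 583 and 549 in the Brangus pair and 548 and 684 in the Holstein Friesian pair.

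Cytotoxic effector genes gave a mixed picture. Of 20 tested, 13 lay higher and 7 lower in Kedah-Kelantan relative to Holstein Friesian (median 0.25, 3 with an unadjusted p under 0.05). Against Brangus 15 were higher and 5 lower (median 0.81, 7 with an unadjusted p under 0.05). Of all genes, 46.5% and 51.9% were above 0 in these comparisons, and 4.04% and 11.6% had an unadjusted p under 0.05. CCL5, a chemokine of cytotoxic lymphocytes, was 188 and 235 CPM in the Kedah-Kelantan pair, 56.3 and 56.8 in the Brangus pair and 47.9 and 72.3 in the Holstein Friesian pair. Kedah-Kelantan was clear of the rest, as for KLRK1, but CCL5 was named for its small any-breed p. CTSW, a cathepsin of cytotoxic cells, was 73.4 and 85.1, 45.7 and 45.7, and 48.0 and 29.8 CPM in that order of breeds. GZMB, the protease granzyme B, was instead highest in Holstein Friesian at 76.7 and 81.8 CPM, against 39.6 and 50.9 in Kedah-Kelantan and 20.7 and 21.8 in Brangus.

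Among cytokine receptor genes of NK cells, 3 of 20 were higher and 17 lower in Kedah-Kelantan relative to Holstein Friesian (median -0.36, 3 with an unadjusted p under 0.05), beside 46.5% of all genes above 0 and 4.04% with such a p, but 8 were higher and 12 lower by total counts. IL18R1, a chain of the interleukin 18 receptor, was 28.8 and 25.4 CPM in the Kedah-Kelantan pair, 29.4 and 33.1 in the Brangus pair and 75.0 and 49.8 in the Holstein Friesian pair. Its partner IL18RAP was 19.1 and 19.3, 24.1 and 31.6, and 38.4 and 28.1 CPM in that order of breeds, and IL21R was 22.8 and 28.2, 20.9 and 27.2, and 51.2 and 37.3. Of 16 NK transcription factor genes, 14 were higher in Kedah-Kelantan than in Brangus (median 0.26) and 5 were higher than in Holstein Friesian (median -0.06), beside 51.9% and 46.5% of all genes above 0. The unadjusted p was under 0.05 for 1 and 0 of them, beside 11.6% and 4.04% of all genes. By total counts the numbers higher became 16 and 10. BCL11B, a factor of T and NK cell development, was 132 and 133 CPM in the Kedah-Kelantan pair, 70.4 and 94.3 in the Brangus pair and 87.8 and 110 in the Holstein Friesian pair. ZBTB16, the factor PLZF of innate-like lymphocytes, had 158 and 124 counts in the Kedah-Kelantan pair, 31 and 37 in the Brangus pair and 51 and 136 in the Holstein Friesian pair. ID2, a regulator of innate lymphocytes, was 75.2 and 87.0, 68.9 and 64.0, and 77.5 and 153 CPM.

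Genes outside the set with levels most like a member over the 6 libraries were found among 11058 genes by Pearson's r of log2 CPM, given as a description since the libraries share breed and depth. For KLRK1 they were GSDMB (r = 0.99), GINS1 (0.99), NOL6 (0.99), PPP1R26 (0.98) and NKG2A (0.98). For TYROBP they were C5AR1, SPTBN5, TARM1, LOC407171 and BATF2, each at 1.00 when rounded, of which C5AR1 encodes the myeloid receptor for complement C5a and LOC407171 an Fc gamma receptor. For LOC100336795 they were YJU2B (1.00), ENY2 (0.99), SCLY (0.99), FOXP1 (0.99) and STK3 (0.99). The r of LOC100336795 includes the Kedah-Kelantan values that chose it. Its list therefore mainly ranks genes that were low in Kedah-Kelantan. Within the set, r was 0.82 to 0.89 between the 4 lectin-like receptor genes and -0.89 between HCST and TYROBP.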

How the data were processed

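Whole-blood RNA-seq of 6 libraries (3 breeds, 2 each) was analysed from 2 deposited tables. Per the file headers, the authors deposited raw counts per gene and FPKM values. Per the submitters' processing notes, reads were handled with HISAT2 2.2.1, featureCounts 2.0.1, Trimmomatic 0.39, FastQC 0.11.9 and DESeq2 1.38.0, on ARS-UCD1.2. How each was set, strand use among it, is not given in the sources used here. Positions are those of the deposited table and were not checked against that build. Counts were tested with edgeR 4.0.16 in R 4.3.3 over all 6 libraries (TMM scaling, filterByExpr, robust quasi-likelihood fit, breed as the only term, 3 residual degrees of freedom). Benjamini-Hochberg adjustment ran over 13455 genes, and an adjusted p under 0.05 was called. SE is the log2 fold change over the square root of F. CPM used TMM-adjusted library sizes. The test was tried on simulated counts first. Alternatives covered scaling, filter, DESeq2 1.42.0, limma 3.58.1 on log2(FPKM + 0.1), samples fitted, haemoglobin genes, a replicate block and each library left out. The members and lists were chosen with earlier results of these data known. All 10 members were named, then up to 3 genes per pathway list by smallest any-breed p, and 5 genes most alike to each of 3 members. Marker lists served only as summed levels. No sequences are shown.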

Additional observations from a re-analysis of the deposited data

How the results depend on the processing

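Leaving out 1 library at a time gave 0 to 8 called members for Kedah-Kelantan against Holstein Friesian, 0 to 2 for Brangus against Holstein Friesian and 0 to 6 for Kedah-Kelantan against Brangus, with calls only when a Holstein Friesian library was out. In such a fit the lone library of its breed is assumed to vary like the others. The counts of genes with Kedah-Kelantan above the rest without each library, and the list splits by scaling, were chosen after seeing the data. Medians over the 10 genes ran from 0.99 to 1.16, from -0.48 to -0.094 and from 1.22 to 1.378 in those fits. DESeq2 called 2 members (KLRK1 and NCR1) against Holstein Friesian and 4 (KLRK1, KLRD1, KLRB1 and NCR1) against Brangus, and fitting only the 2 breeds called 6 against Brangus. limma on FPKM called 0. Scaling by total counts put the median of all genes at 0.12, -0.14 and 0.29, and the members' median against Brangus at 1.55. With limma on FPKM the median of all genes was 0.18, -0.09 and 0.28, and the members' median against Brangus 1.48. For Kedah-Kelantan against Holstein Friesian, CD244 turned to 0.0072 with total counts and 0.046 with limma, and TYROBP to 0.43 with limma. TYROBP in Brangus against Holstein Friesian turned to 0.36 with limma, and in Kedah-Kelantan against Brangus to 0.064 with total counts and 0.069 with limma. The cause was not tested. With limma on FPKM the gene lists split, against Holstein Friesian, into 19 higher and 9 lower (signalling), 10 and 10 (cytokine receptors), 12 and 4 (transcription factors) and 17 and 5 (other receptors). Without 1 library, signs also turned for CD244 (-0.54 to 0.27), HCST (-0.52 to 0.87) and TYROBP (-1.66 to 2.18) in Kedah-Kelantan against Holstein Friesian, and for KLRK1 (-0.32 to 0.24), KLRF1 (-1.76 to 1.69), NCR1 (-0.53 to 0.26), HCST (-0.75 to 0.62) and TYROBP (-1.47 to 2.38) in Brangus against Holstein Friesian. In the Kedah-Kelantan comparisons KLRK1, KLRD1, KLRB1, KLRF1, NCR1 and NCR3 were above 0 in all 16 fits. At fixed scaling, this follows in the fits without 1 library from groups that do not overlap.

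Replicate numbers do not pair the animals in the labels, and same-numbered libraries deviated together with correlations of 0.00, 0.16 and 0.06 over 8867 genes. With a replicate block 0 members were called in every comparison, and TYROBP in Brangus against Holstein Friesian turned to 0.057. Counting error is wide for libraries with counts of 20 or fewer, such as those of KLRF1, NKG2C and several ligand rows.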
